A study of Danio rerio with 29 samples.

Results

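The genes described here build and handle microtubules: 72 of the 32520 zebrafish genes in the count tables, taken by the letters that open their symbols (tuba, tubb, tubg, map1a, map1b, map1s, map2 without map2k, map4 without map4k, map6, map7, mapt, mapre, clasp, clip1, clip2, stmn, dcx, dclk, camsap and ckap5, case ignored). They are 11 alpha tubulins, 7 beta tubulins, 1 gamma tubulin and 4 gamma-tubulin complex proteins, 5 genes of the MAP1 family, 4 of the MAP2, MAP4 and tau group, 10 of the MAP6 and MAP7 group, 5 end-binding (EB) genes, 4 CLASP or CLIP genes, 8 stathmins, 5 genes of the doublecortin family, 7 CAMSAP or CKAP5 genes, and DCXR. DCXR was matched by its letters alone and encodes a sugar-metabolising reductase. In brains 66 members had enough reads to be tested and tuba4l, tubb1, tubb6, DCLK3, DCXR and STMND1 had not; in bodies 69 were tested, and tuba7l, DCLK3 and STMND1 were not. Many zebrafish genes carry the symbol of their human counterpart in capitals in the name table used here. Where more than 1 gene had the same symbol, the last digits of its Ensembl identifier follow the symbol, so that STMN1-33655 is ENSDARG00000033655 and STMN1-4169 is ENSDARG00000004169.

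RNA selected for poly(A) tails was sequenced from adult zebrafish with mutations made by CRISPR/Cas9 in ccser1, in whole brains and in whole bodies without the brain. The M group (4 brains, 6 bodies) was homozygous for the allele labelled CCSER1_P471, the S group (4 brains, 6 bodies) was homozygous for the allele labelled CCSER1_S48Y*, and the wild-type (WT) group (3 brains, 6 bodies) held siblings from a heterozygous incross. Which line these siblings came from is not stated in the labels, so line and family background cannot be told apart. The labels give no sex, clutch or pooling and do not say that each library is a separate fish, so p-values measure only the spread between these libraries, which may be technical. Libraries held 7445865 to 9521735 counts in brains and 9450422 to 11674882 in bodies.

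Microtubules are hollow polymers of alpha and beta tubulin pairs that grow and shrink at their ends. Gamma tubulin and its complex proteins start new polymers, the MAPs and tau stabilise and space them, EB, CLASP and CLIP proteins and the CKAP5 polymerase act at growing plus ends, CAMSAPs hold minus ends, and stathmins bind free tubulin and favour shrinkage. In the brain these proteins carry axon growth, dendrite shape and transport. In dividing cells and eggs they build the spindle.

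Levels below are counts per 1e+06 mapped counts (CPM) after TMM scaling within a tissue, each change is a log2 ratio with its standard error (SE), and a gene was called when its Benjamini-Hochberg adjusted p from edgeR's quasi-likelihood test over all genes was below 0.05. Counts of alike tubulin genes (tuba1a, tuba1b and tuba1c; the 2 genes named tubb2b) may be split between the copies by the counting, so a change in 1 copy is uncertain. In bulk tissue, fewer cells of a type and less RNA per cell cannot be told apart. The transcript of CCSER1 itself was not called in brains (in M a log2 change of -0.17 with adjusted p = 0.666; in S one of 0.19 with adjusted p = 0.61). It was lower in bodies, at 1.77 to 3.64 CPM in M, 2.02 to 4.64 in S and 3.13 to 6.51 in WT, with adjusted p = 0.0341 and 0.0299 against WT (edgeR). Oocyte markers also separated WT bodies from both lines, as given below, so line and oocyte content cannot be told apart for this change.

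Some libraries stood apart in marker genes of other cells. In brains the summed level of 16 photoreceptor or pineal markers was 203 to 328 CPM in M and 188 to 331 in S, against 13.3 to 18.8 in WT. The 10 oligodendrocyte markers summed to 5139 to 8090 CPM in M, wholly below the 9024 to 10320 in S and the 8730 to 14330 in WT. The 17 neuron markers summed to 9639 to 10340 in M, 9676 to 10160 in S and 10080 to 11230 in WT. The 11 radial glia markers summed to 6123 to 6753 CPM in M, wholly below the 7310 to 7621 in S and the 7123 to 8122 in WT, and the 20 cell division markers to 101 to 136 CPM in M, 132 to 163 in S and 132 to 159 in WT. S brain 3 held 977 CPM of 14 muscle markers (the other S brains 44.7 to 50.8) and 4067 CPM of 12 epidermis markers (the other S brains 87 to 96.7). Epidermis markers were also high in M brain 4 (729 CPM; other M brains 82.2 to 168.5) and WT brain 1 (542.5 CPM; other WT brains 123 and 168). The bodies differed along both an oocyte and a neuron list, whose values are given beside the body results. The part of any of these markers in the brain results was not tested.

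Wild-type fish show where the members are used. Of 70 members tested over both tissues, 54 were higher and 10 lower in WT brains than in WT bodies, so 91.4% were called where 79.7% of all genes were (37.9% higher, 41.7% lower). The median change was 2.18 on the log2 scale, against -0.12 for all genes. Brain and body counts were deposited as separate tables, so tissue and any batch that goes with a table cannot be told apart. The members with the largest increase in brain were map7a, whose mammalian counterpart recruits kinesin-1 (log2 change 5.03, SE 0.19), map4l, DCLK1-18856, map6d1, map1ab and MAP7D2-68480 (4.25 to 4.70). For map7a this was a mean of 90.9 CPM in 3 WT brains and 2.76 CPM in 6 WT bodies, scaled over both tissues.

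A smaller set was higher in WT bodies. The means in this paragraph are scaled over both tissues, so they differ from the levels scaled within a tissue that are given later. The alpha tubulin tuba4l averaged 0.533 CPM in WT brains and 331 CPM in WT bodies (log2 change -9.23, SE 1.69), and DCXR, tubb1, tuba5, MAPRE1 and STMN1-4169 followed with log2 changes of -3.97 to -3.05. These 6 had adjusted p of at most 2.45e-05 (edgeR). The WT bodies held 1110 to 6773 CPM of oocyte markers, given below, and the part of oocytes in these levels was not tested. The genes named STMN1 split by tissue. STMN1-33655 averaged 1575 CPM in WT brains and 102 in WT bodies, while STMN1-4169 averaged 12.8 CPM in WT brains and 106 in WT bodies. In every other pair of members sharing a symbol, such as DCLK1, STMN2 and STMN4, both genes were higher in WT brains. All 4 genes of the MAP2, MAP4 and tau group, all 4 tested doublecortin genes and 7 of 7 CAMSAP or CKAP5 genes were higher in brains, while the 11 alpha tubulins split into 5 higher, 4 lower and 2 not called. Among all genes 37.9% were higher and 41.7% lower in WT brains.

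**Figure D1:**
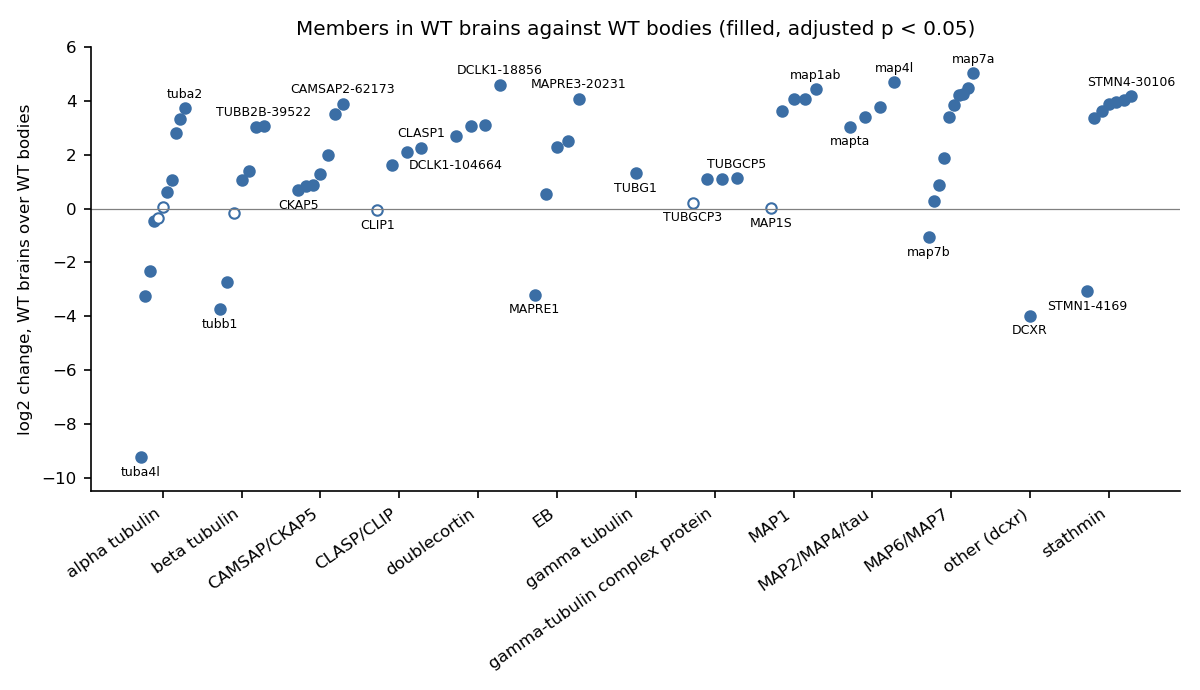
Each point is 1 member, placed by its family, and the vertical axis is the log2 change of WT brains (n = 3) over WT bodies (n = 6); filled points passed adjusted p < 0.05 and open points did not. The lowest and the highest member of each family carry their names: MAP, stathmin and doublecortin genes lie mostly above 2, and tuba4l lies at -9.23.

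In brains, M fish had lower transcript levels of several tubulins and of stathmins, and S fish shared part of this. Oligodendrocyte and radial glia markers, given above, were likewise lowest in M brains. In M against WT, 7 of 10 oligodendrocyte markers were lower and 0 higher, and 3 of 11 radial glia markers were lower and 1 higher. In S, 1 marker of each of these lists was lower and 0 higher. Of 16 neuron markers tested, 4 were lower and 1 higher in M, and 3 were lower and 1 higher in S. Their part in these results was not tested. EdgeR called 15 of 66 members in M brains against WT brains (3 higher, 12 lower), 22.7% where 10.1% of all genes were called (4.93% higher, 5.19% lower). In S brains against WT brains it called 8 (2 higher, 6 lower), 12.1% where the background was 10.3% (5.59% higher, 4.73% lower), so the share in S brains was near that of all genes. The S count was 5, 3, 5 and 3 without WT brain 2, WT brain 3, S brain 1 and S brain 4. Both contrasts use the same 3 WT brains. Sizes were small: the median absolute log2 change of the members was 0.16 in M and 0.14 in S, below the 0.23 and 0.22 of all genes. The members were not matched with all genes for level, which can alter both the sizes and the shares called. The share of all counts that fell on the 72 members was 1.85% ± 0.0196 in M, 1.88% ± 0.0321 in S (SD, n = 4 each) and 1.93% ± 0.0641 in WT brains (n = 3).

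There were 5 members called in the same direction in both lines, map1ab higher and map1sb, STMN1-33655, STMN4-30106 and DCLK1-18856 lower. The largest of these changes was in map1sb, the counterpart of MAP1S, a MAP1 protein found in many tissues. It stood at 58.3, 56.3, 57.3 and 58.5 CPM in M brains and 49.4, 58.1, 62 and 54.6 CPM in S brains, against 128, 138 and 86 CPM in WT brains. Every mutant brain lay below every WT brain. The log2 change was -1.02 (SE 0.13, adjusted p = 0.000445, edgeR) in M and -1.06 (SE 0.13, adjusted p = 0.000382) in S. The M and S brains did not differ detectably (0.04, SE 0.12, adjusted p = 0.878).

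No other MAP1 gene was called lower against WT. The gene map1ab, a counterpart of MAP1A, which binds microtubules of mature neurons, held 1542, 1564, 1557 and 1616 CPM in M brains and 1781, 1905, 1706 and 1741 CPM in S brains, against 1334, 1393 and 1256 CPM in WT brains. The 3 groups did not overlap, with S highest and WT lowest. Its log2 change was 0.24 in M (SE 0.05, adjusted p = 0.0132, edgeR) and 0.43 in S (SE 0.05, adjusted p = 0.000408), and M lay below S by -0.18 (adjusted p = 0.0322). Without WT brain 3 the call in M was lost (adjusted p = 0.0669). The call between M and S was lost without any 1 of M brains 1, 2 and 3 and S brains 1, 2 and 4 (adjusted p up to 0.108).

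MAP1A measured 744, 771, 890.2 and 668 CPM in M brains and 663, 708, 709 and 702 CPM in S brains, against 616, 564 and 571 CPM in WT brains. No mutant brain overlapped WT, but only M passed the test (log2 change 0.40, SE 0.08, adjusted p = 0.00724, edgeR), while S had 0.25 with adjusted p = 0.0566. MAP1B, the MAP1 gene of growing axons, was called only between the lines. It held 429.7, 423, 439 and 455 CPM in M brains and 541, 524, 507 and 518 CPM in S brains, with the WT brains between at 476, 488 and 475 CPM. The M brains lay below all S brains (log2 change -0.26, SE 0.05, adjusted p = 0.00446, edgeR). Summed over the family, MAP1 levels were 2816 to 2984 CPM in M, 3024 to 3230 in S and 2425 to 2616 in WT brains, without overlap.

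Of 7 stathmins tested in brains, 4 were lower in M and 3 in S, and none was called higher. Among all genes 5.19% were lower in M brains and 4.73% in S brains. STMN1-33655, whose human counterpart is the widespread stathmin that sequesters tubulin, was at 1455, 1290, 1405 and 1594 CPM in M brains and 1576, 1423, 1614 and 1566 CPM in S brains, against 1973, 1916 and 1915 CPM in WT brains. Both mutant groups lay wholly below WT, at log2 changes of -0.43 (SE 0.07, adjusted p = 0.00152, edgeR) in M and -0.32 (SE 0.07, adjusted p = 0.00848) in S. STMN4-30106, of a stathmin found in neurons, had 715, 759, 608 and 749 CPM in M brains and 713, 679, 716 and 678 CPM in S brains, against 805, 867 and 925 CPM in WT brains. Again no mutant brain reached WT (log2 change -0.29 with adjusted p = 0.0254 for M and -0.31 with adjusted p = 0.0168 for S, edgeR), but the M call was lost without WT brain 2 or 3 (adjusted p up to 0.103) and the S call without WT brain 3 or S brain 4 (up to 0.0878).

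The remaining stathmin calls belonged to 1 line. STMN4-43932 was at 102, 85.2, 79 and 99.9 CPM in M brains and 126, 126, 128 and 109.8 CPM in S brains, against 131, 133 and 126 CPM in WT brains. The M brains were below both other groups (log2 change -0.50 against WT, SE 0.09, adjusted p = 0.00348; -0.42 against S, SE 0.08, adjusted p = 0.00703, edgeR). STMN1-4169 was the only stathmin called higher in WT bodies than in WT brains. It was also lower in M brains than in WT brains (-0.56, adjusted p = 0.0226) and than in S brains (-0.47, adjusted p = 0.0337). The first call was lost without WT brain 1 or M brain 3 (adjusted p up to 0.0898), and the second without M brain 1, 2 or 3 or S brain 1, 2 or 4 (up to 0.0867). STMN2-33234, of a stathmin of growth cones, was lower in S brains alone (-0.20, SE 0.05, adjusted p = 0.0267), a call that failed when WT brain 2 or 3, or S brain 2, 3 or 4, was left out (up to 0.1095). Summed over the 8 stathmins, levels were 3357 to 3840 CPM in M, 3524 to 3785 in S and 4282 to 4523 in WT brains, with no overlap between WT and either line.

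Among the doublecortin genes, DCLK1-18856 was lower. The human gene encodes a microtubule-binding kinase of neurons. Values were 168, 163, 148 and 181 CPM in M brains and 205, 211, 194 and 207 CPM in S brains, against 228, 259 and 257 CPM in WT brains. The 3 groups did not overlap. The log2 change was -0.59 in M (SE 0.07, adjusted p = 0.000337, edgeR) and -0.28 in S (SE 0.07, adjusted p = 0.0291), and M was also lower than S (-0.31, SE 0.07, adjusted p = 0.0126). The S call did not hold when WT brain 2 or 3, or S brain 1, 3 or 4, was left out (adjusted p up to 0.112). The second gene of that symbol, DCLK1-104664, and dclk2a and dclk2b were not called in brains.

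**Figure D2:**
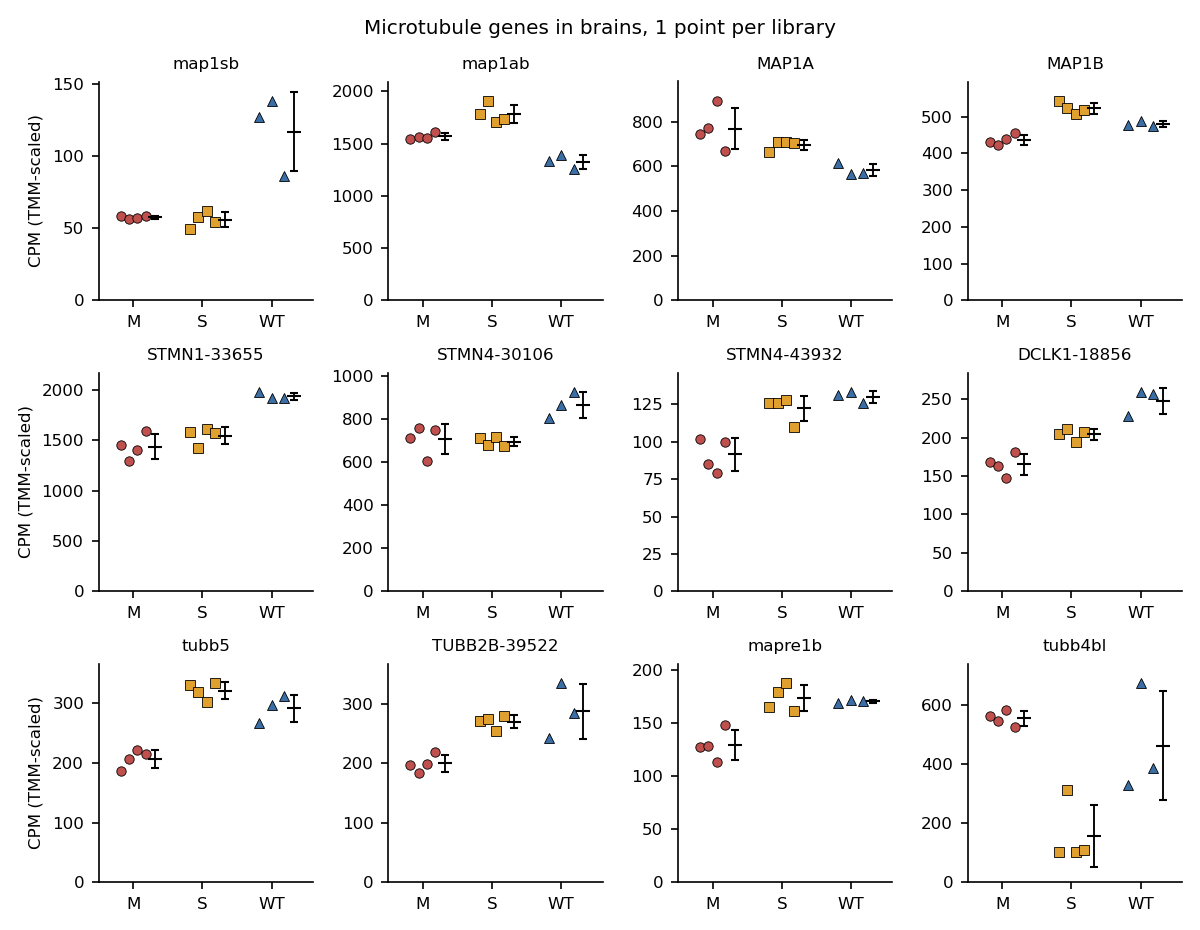
Each panel is 1 gene and each point 1 brain library (M, n = 4; S, n = 4; WT, n = 3), with the mean and SD as a bar beside the points and CPM on an axis from 0. map1sb, STMN1-33655 and STMN4-30106 lie lower in both lines, while tubb5, TUBB2B-39522, mapre1b and STMN4-43932 lie lower in M alone.

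Several tubulin genes were lower in M, and the tubulin sums of M reached the WT range through WT brain 1 alone. The alpha tubulins summed to 3619 to 3818 CPM in M, 3866 to 4219 in S and 3818 to 4581 in WT brains. The beta tubulins summed to 2364 to 2387 CPM in M, 2175 to 2381 in S and 2376 to 2977 in WT brains. Both lines reached WT only through WT brain 1 (3818 CPM alpha, 2376 beta). WT brains 2 and 3 had 4360 and 4581 CPM of alpha and 2977 and 2829 CPM of beta tubulins. Mean alpha sums were 3734 CPM in M, 4045 in S and 4253 in WT. Mean beta sums were 2379, 2292 and 2728 CPM. Differences in these sums were not tested. Of 15 alpha and beta tubulins tested in brains, 5 were lower in M brains than in WT brains and none was higher by the test, while 1, TUBA1A, was lower in S brains. These stand beside the 5.19% and 4.73% of all genes lower in M and S brains. The beta tubulin tubb5 measured 186, 206, 222 and 215 CPM in M brains and 331, 319, 303 and 334 CPM in S brains, against 267, 297 and 312 CPM in WT brains. M brains lay below both other groups, by -0.49 against WT (SE 0.07, adjusted p = 0.00111, edgeR) and by -0.63 against S (SE 0.07, adjusted p = 9.4e-05). TUBB2B-39522, of a beta tubulin that in mammals is prominent in young neurons, had 197, 184, 199 and 219 CPM in M brains and 272, 274, 254 and 279 CPM in S brains, against 243, 334 and 284 CPM in WT brains. M was lower by -0.52 against WT (SE 0.09, adjusted p = 0.00307) and by -0.43 against S (SE 0.09, adjusted p = 0.00622), again without overlap.

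The second tubb2b gene, tubb2b-98591, moved the same way against WT, with 613, 658, 649 and 595 CPM in M brains against 688, 808 and 829.6 CPM in WT brains. Its log2 change of -0.30 (adjusted p = 0.0171, edgeR) was not kept without WT brain 2 or 3 (adjusted p up to 0.0774). The alpha tubulin tuba8l3 was at 66.9, 64.8, 63.2 and 86.1 CPM in M brains and 93.5, 91.2, 89.5 and 99 CPM in S brains, against 87.1, 104 and 118 CPM in WT brains. M lay below both (against WT -0.55, SE 0.11, adjusted p = 0.00827; against S -0.41, SE 0.11, adjusted p = 0.0253), the second call being lost without M brain 1, 2 or 3 or S brain 1, 2 or 4 (adjusted p up to 0.08185). The abundant tuba1c, at 1397, 1567, 1440 and 1279 CPM in M brains, 1826, 1711, 1657 and 1892 CPM in S brains and 1505, 1949 and 2027 CPM in WT brains, overlapped with WT through WT brain 1. Its changes of -0.36 against WT (adjusted p = 0.0295) and -0.32 against S (adjusted p = 0.0376) were lost without 4 of 7 and 6 of 8 libraries (WT brains 2 and 3 and M brains 1 and 3; M brains 1, 3 and 4 and S brains 1, 2 and 4), with adjusted p up to 0.119 and 0.0952.

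TUBA1A was the tubulin called in S brains: 609, 668, 646 and 606 CPM in M, 553, 685, 511 and 572 CPM in S and 650.1, 843 and 821 CPM in WT. S brain 2 overlapped with WT brain 1. The change of -0.41 (SE 0.10, adjusted p = 0.0213, edgeR) did not hold when WT brain 2 or 3, or S brain 1 or 4, was left out (adjusted p up to 0.0974), and M had -0.29 with adjusted p = 0.0891. The gamma tubulin TUBG1 and the gamma-tubulin complex genes were not called against WT in either line.

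M and S brains differed from each other in as many members as M and WT brains. EdgeR called 15 of 66 (2 higher and 13 lower in M), 22.7% where 10.1% of all genes were called (4.64% higher, 5.41% lower). With 1 library left out, 7 to 18 members were called in all. Of the 15, 7 were called whichever of the 8 libraries was left out: tubb5, TUBB2B-39522, tuba2, MAP1B, STMN4-43932, DCLK1-18856 and mapre1b. The count fell to 8, 9 or 8 without M brain 1, 2 or 3, and to 7, 8 or 7 without S brain 1, 2 or 4. The alpha tubulin tuba2 held 627, 705, 694 and 602 CPM in M brains and 893, 866, 795 and 885 CPM in S brains, without overlap (log2 change -0.39, SE 0.07, adjusted p = 0.00248, edgeR). The WT brains at 698, 740 and 801 CPM overlapped with both.

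At plus ends, mapre1b, a gene for EB1, the protein that marks growing tips, had 127, 129, 114 and 148 CPM in M brains and 165, 179, 187 and 162 CPM in S brains, against 169, 172 and 171 CPM in WT brains. The M brains lay below every other brain, by -0.40 against WT (SE 0.08, adjusted p = 0.00874, edgeR) and -0.42 against S (SE 0.08, adjusted p = 0.0041). CLASP1 and CLASP2, whose products rescue shrinking microtubules, were lower in M than in S brains (-0.23, adjusted p = 0.0485, and -0.17, adjusted p = 0.0474), and TUBGCP3, of the gamma-tubulin complex, was higher (0.31, adjusted p = 0.0301). The M and S ranges of these 3 genes did not overlap, yet each call was lost in 7 of the 8 fits without 1 library (adjusted p up to 0.115, 0.1296 and 0.08204) and kept in 1, without M brain 2 for CLASP1 and without M brain 4 for CLASP2 and TUBGCP3. CLIP2, of a linker between plus ends and membranes, was higher in S brains (68.5, 72.1, 64 and 72.3 CPM) than in WT brains (60.7, 52.6 and 42.5 CPM), without overlap (log2 change 0.41, SE 0.11, adjusted p = 0.0317), and this did not hold when WT brain 2 or 3, or S brain 1, 2 or 4, was left out (up to 0.145). Of the dendritic MAP map2, M brains held 349, 357, 358 and 347 CPM and WT brains 288, 303 and 314 CPM, a rise of 0.23 (adjusted p = 0.0294) which did not hold on leaving out WT brain 1 or 2 or M brain 1, 2 or 3 (up to 0.0904).

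The gene tubb4bl, a beta tubulin, varied between libraries of 1 group. It was at 563, 544, 583 and 525 CPM in M brains and 102, 313, 102 and 108 CPM in S brains, while WT brains had 328, 672 and 385 CPM. M brains lay close together and above all S brains, S brain 2 lay far above the other S brains, and WT brain 2 far above the other WT brains. Against S the log2 change in M was 1.83 (SE 0.42, adjusted p = 0.0324, edgeR), lost without M brain 1, 2 or 3 or S brain 1, 3 or 4 (adjusted p up to 0.0871). S against WT had -1.56 (SE 0.45) with adjusted p = 0.0621. A like spread was seen in tuba1b, chosen here after its values were seen: 451, 291, 496 and 435 CPM in M brains, 218, 151, 203 and 189.5 CPM in S brains and 314, 94.6 and 179 CPM in WT brains. It was not called in any brain contrast (M against S 1.14, SE 0.34, adjusted p = 0.0749).

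**Figure D3:**
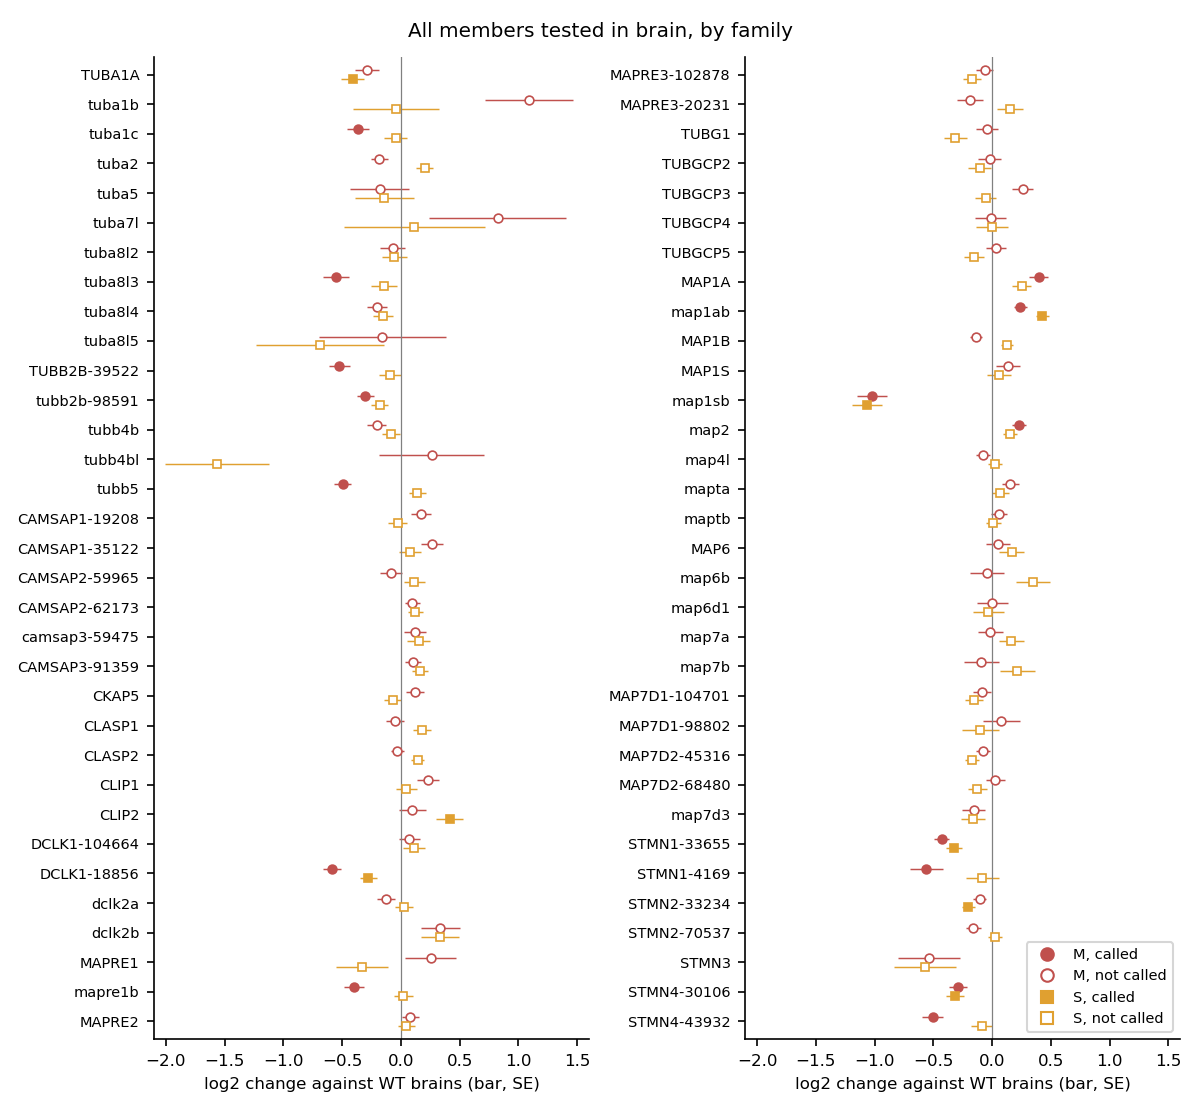
Every member tested in brains is given by its log2 change against WT brains, with its SE as a bar (M circles, S squares; filled, adjusted p < 0.05; 4 M, 4 S and 3 WT libraries). Most members lie close to 0, map1sb lies near -1 in both lines, and the stathmins at the lower right lie mostly left of 0.

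Genes that act on microtubules outside the members were listed by role. In M brains against WT, 3 of 17 tubulin folding genes were called (1 higher, 2 lower), 3 of 26 tubulin modification genes (2 higher, 1 lower), 0 of 9 severing genes, 1 of 18 nucleation and anchoring genes (lower), 1 of 26 plus-end and linker genes (higher) and 2 of 23 dynein, dynactin and LIS1 genes (1 higher, 1 lower). In S brains the same lists had 2 higher and 4 lower, 2 higher and none lower, none, 2 higher and 1 lower, 5 higher and none lower, and 1 higher and 4 lower. These counts stand beside the 10.1% and 10.3% of all genes called in M and S brains. AGTPBP1, which trims the glutamate tails of tubulin, was higher in M (log2 change 0.64, SE 0.09, adjusted p = 0.00055, edgeR) and S (0.47, SE 0.09, adjusted p = 0.0044). The dynein heavy chain gene DYNC1H1 was higher (0.38, adjusted p = 0.023, and 0.49, adjusted p = 0.00602), and the tubulin chaperone gene TBCB lower (-0.37, adjusted p = 0.00673, and -0.35, adjusted p = 0.00928). These 3 genes are among the 3 of smallest adjusted p in their lists. Other genes of the dynein and folding lists went the other way in both lines. In M and S, dynll1 was lower (-0.27, adjusted p = 0.0209, and -0.34, adjusted p = 0.00624, edgeR). TBCCD1 was higher (1.01, adjusted p = 0.0307, and 1.13, adjusted p = 0.0177).

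In bodies, the members lower in both lines included tuba4l, STMN1-4169, MAPRE1, CKAP5 and gamma-tubulin complex genes. Every member called higher in M or S bodies was one that WT brains held more of than WT bodies. The same was true of 54 of all 70 members tested over both tissues, in a comparison that shares the WT bodies. It was also true of members lower in both lines, such as CKAP5 and TUBGCP5, while tuba4l, STMN1-4169 and MAPRE1 were lower in WT brains. EdgeR called 19 of 69 in M bodies against WT (6 higher, 13 lower), 27.5% where 33.1% of all genes were called (12.4% higher, 20.7% lower), and 27 in S bodies (16 higher, 11 lower), 39.1% where the background was 36.8% (15.7% higher, 21.1% lower). These shares are near or below those of all genes, and both contrasts use the same 6 WT bodies. In both lines 16 were called alike, 5 higher (map7a, CLASP1, mapta, MAP7D2-68480 and tuba2) and 11 lower. The median log2 change of the members was 0.30 in M and 0.33 in S, against 0.05 and 0.02 for all genes. Without M body 5 the count in M was 34, and without WT body 6 the count in S was 42. The count of members higher in S bodies, 16 here, was 25 with DESeq2, 23 in a fit to only the S and WT bodies and 28 with the replicate block, while 12, 11 and 11 were lower. In these fits 40.73%, 35.15% and 39.25% of all genes were called.

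The body groups differed in oocyte markers. The 18 oocyte markers summed to 1.41 to 88.6 CPM in M and 2.02 to 793 CPM in S, against 1110 to 6773 CPM in WT, with no overlap, and none of the 18 was at 0 in every body. WT bodies 1, 2, 4 and 5 had 6773, 4900, 5199 and 2751 CPM, WT bodies 3 and 6 had 1390 and 1110, and S bodies 2 and 3 had 793 and 306. Cell division markers ran likewise, at 282 to 344 CPM in M, 316 to 567 in S and 524 to 1920 in WT. With the mean log2 level of the oocyte markers as a covariate, edgeR called 0 of 69 members in M bodies (1 at an unadjusted p under 0.05) and 0 in S bodies (2 such), among 32 and 182 of 20240 genes called at all. The 13 members lower in M had a median log2 change of -0.96 without the covariate and -0.30 with it, and a median SE of 0.17 and 0.31. The 6 higher in M had medians of 0.89 and 0.21, the 16 higher in S 1.08 and 0.35, and the 11 lower in S -0.98 and -0.30, so that higher and lower members alike came nearer to 0 under this covariate. Because the oocyte sums of the mutants and of WT did not overlap, line and oocyte content cannot be told apart in these bodies.

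Of all members tested in bodies, tuba4l had the largest drop in both lines. Its lowest, median and highest levels were 0.503, 1.15 and 6.27 CPM in M bodies and 0.48, 1.55 and 61.9 CPM in S bodies, against 57.2, 302 and 556 CPM in WT bodies. M did not overlap with WT, and S overlapped through S body 2, the S body with the most oocyte markers. The log2 change was -7.17 in M (SE 1.32, adjusted p = 0.000735, edgeR) and -4.30 in S (SE 1.12, adjusted p = 0.00798). With the oocyte covariate these became 0.52 (adjusted p = 0.956) and 0.45 (adjusted p = 0.478).

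STMN1-4169, MAPRE1 and CKAP5 were also lower in both lines, while of the plus-end genes CLASP1 was higher and CLASP2 was not called. STMN1-4169 had a lowest, median and highest level of 16.5, 27.3 and 30.7 CPM in M bodies and 27.3, 30.9 and 48.1 CPM in S bodies, against 42.7, 88 and 143 CPM in WT bodies (log2 change -1.86 with adjusted p = 9.16e-05 for M and -1.44 with adjusted p = 0.000683 for S, edgeR). MAPRE1, the second EB1 gene, had 13.2, 15.2 and 16 CPM in M bodies and 9.94, 11.6 and 17.4 CPM in S bodies, against 18.7, 34.7 and 47.6 CPM in WT bodies (-1.17, adjusted p = 0.000286, and -1.39, adjusted p = 9.6e-05). CKAP5 had 56.2, 65.8 and 77.9 CPM in M bodies and 64.3, 66.8 and 82 CPM in S bodies, against 79, 144 and 194 CPM in WT bodies (-1.03, adjusted p = 0.000438, and -0.98, adjusted p = 0.000759). In each of these genes WT bodies 1, 2, 4 and 5 were the 4 highest of the 18 bodies, and WT bodies 3 and 6 lay close to the mutants. M lay wholly below WT in all 3, as did S for MAPRE1, while S body 2 for STMN1-4169 and S body 5 for CKAP5 reached into the WT range.

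Of the 4 gamma-tubulin complex genes, 3 were lower in M bodies and 2 in S bodies. TUBGCP3 was lower in M (-0.96, SE 0.17, adjusted p = 0.000427, edgeR) and S (-0.65, SE 0.17, adjusted p = 0.00725), TUBGCP5 in M (-0.66, SE 0.13, adjusted p = 0.00106) and S (-0.59, SE 0.13, adjusted p = 0.00273), and TUBGCP2 in M alone (-0.88, SE 0.17, adjusted p = 0.000557). Of TUBGCP2, M bodies held 5.88 to 8.22 CPM and S bodies 7.83 to 11.9, against 8.66 to 17.2 in WT bodies. M lay wholly below WT, and S bodies overlapped with both. TUBGCP2 in S (-0.35, adjusted p = 0.101), TUBGCP4 (-0.24 in M and -0.08 in S) and the gamma tubulin TUBG1 (-0.15 and -0.13) did not pass. The 20 nucleation and anchoring genes outside the members had 15 lower in M and 14 lower in S and none higher, with medians of -1.84 and -1.79, with haus7, cep192 and haus5 of smallest adjusted p in M. The other lists were, for M and S, folding with 9 and 6 of 16 lower and none higher, severing with 4 and 5 of 8 lower and 0 and 2 higher, plus-end and linker genes with 7 and 6 of 24 lower and 2 and 2 higher, dynein, dynactin and LIS1 with 8 and 8 of 23 lower and 2 and 4 higher, and modification with 3 and 4 of 20 lower and 3 and 5 higher. Of all genes 20.7% were lower and 12.4% higher in M, and 21.1% and 15.7% in S. Also lower in both lines were map7b (-1.10 in M and -1.26 in S), CLIP1 (-0.58 and -0.54), CAMSAP1-19208 (-1.25 and -1.17) and the widely used tubulins tuba8l4 (-0.44 and -0.41) and tubb4b (-0.51 and -0.40). Their adjusted p were at most 0.012 (edgeR). For tuba8l4, M bodies ran from 315 to 379.7 CPM and S bodies from 347 to 387, against 425 to 558 in WT bodies, so that no mutant overlapped with WT, WT bodies 3 and 6 included.

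**Figure D4:**
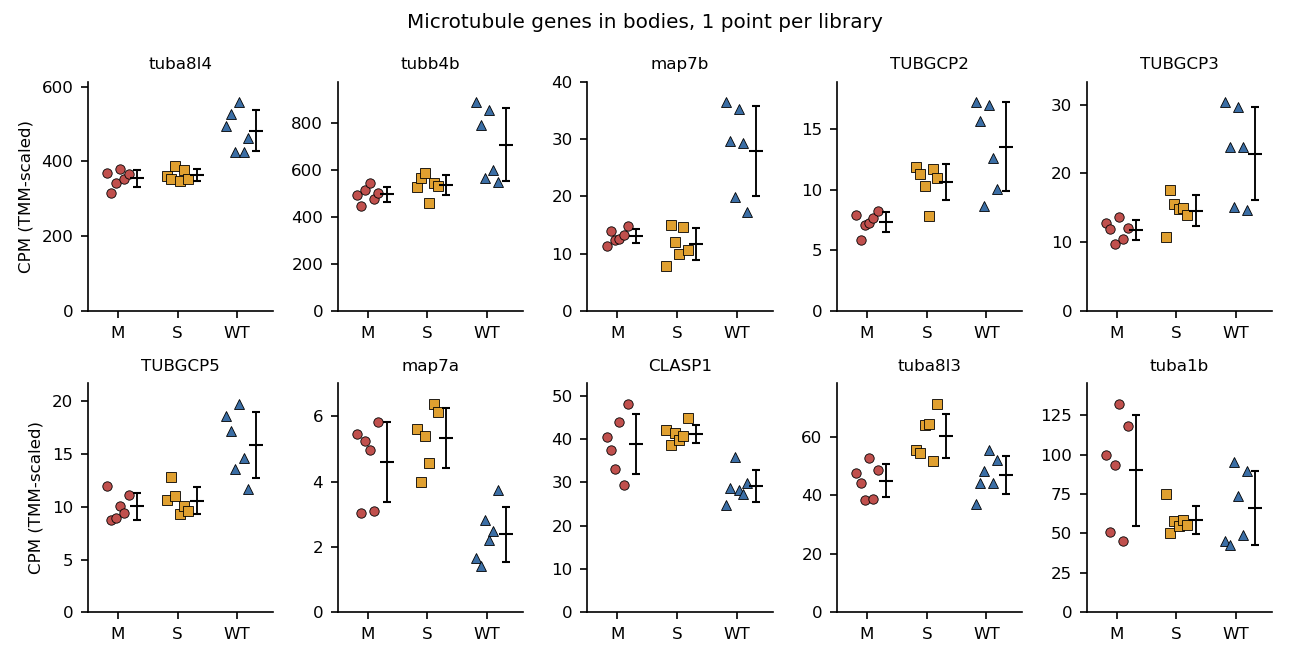
Each panel is 1 gene and each point 1 body (6 M, 6 S and 6 WT), with the mean and SD beside the points and CPM from 0. tuba8l4 and map7b lie lower in all M and S bodies, the gamma-tubulin complex genes are highest in 4 WT bodies, map7a and CLASP1 lie mostly higher in both lines, and tuba8l3 lies lower in M than in most S bodies.

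The bodies also differed in neuron markers. The 17 neuron markers summed to 219 to 945 CPM in M, 592 to 864 in S and 206 to 704 in WT bodies. The low bodies were M bodies 2 and 5 (367 and 219 CPM) and WT bodies 1, 2 and 5 (267, 206 and 226), which also had 0 or 1 count of gh1, the pituitary growth hormone gene, where the other 13 bodies had 51 to 175. Of map1sb, lower in both brains, bodies held 2.51 to 7.16 CPM in M, 3.44 to 6.68 in S and 3.13 to 6.4 in WT, and neither line was called.

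map7a held 3.04, 5.11 and 5.83 CPM (lowest, median and highest) in M bodies and 3.98, 5.51 and 6.38 CPM in S bodies, against 1.43, 2.36 and 3.74 CPM in WT bodies. S did not overlap with WT, and in M only bodies 2 and 5 fell within the WT range (log2 change 0.95, SE 0.24, adjusted p = 0.00475, and 1.16, SE 0.23, adjusted p = 0.00113, edgeR). The tau gene mapta had 13.1, 25.9 and 30.1 CPM in M bodies and 18.8, 24.4 and 29.6 CPM in S bodies, against 6.87, 11.6 and 21 CPM in WT bodies. Both lines overlapped with WT, with changes of 0.88 for M (adjusted p = 0.0142) and 0.94 for S (adjusted p = 0.00924). In tuba2 (0.99 in M, adjusted p = 0.0381; 1.09 in S, adjusted p = 0.0227) and MAP7D2-68480 (0.90 and 1.06, adjusted p = 0.0369 and 0.0149) the M calls were each lost without any 1 of 8 libraries (WT bodies 1, 2, 4 and 5; M bodies 1, 3, 4 and 6), with adjusted p up to 0.0827 and 0.0824. The S call of tuba2 was lost without WT body 2 or 5 (up to 0.0513).

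CLASP1 was higher with less spread, at 29.5 to 48.1 CPM in M bodies and 38.7 to 44.7 in S bodies, against 24.8 to 35.9 in WT bodies (0.41, SE 0.11, adjusted p = 0.00738, and 0.50, SE 0.11, adjusted p = 0.00199, edgeR). In S bodies alone, STMN4-43932 (1.43, adjusted p = 0.00602), map6b (1.33, adjusted p = 0.0109), MAPRE3-20231 (1.21, adjusted p = 0.019) and tuba8l3 (0.36, adjusted p = 0.0154) were called higher in every fit without 1 library. The calls of tuba1c, TUBB2B-39522, dclk2b, MAP1B, STMN2-33234 and STMN2-70537 in S, and of dclk2a in M, were lost without WT body 2 or without WT body 5, among others. The call of tubb5 in S was lost only without WT body 2 or WT body 5 (adjusted p up to 0.0515). M and S bodies differed in a single member, tuba8l3, lower in M (lowest, median and highest 38.5, 45.98 and 52.7 CPM against 51.9, 59.97 and 71.3 CPM in S; -0.42, SE 0.11, adjusted p = 0.0211), 1.45% where 8.11% of all genes were called (4.30% higher, 3.81% lower). This call was lost without M body 3 or 5 or S body 3, 4 or 6 (adjusted p up to 0.0536).

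Without the 5 bodies low in gh1, an alternative chosen after seeing the data, 10 of 69 members were called in M (6 higher, 4 lower) and 14 in S (7 higher, 7 lower). Of all genes, 11.68% and 14.9% were called in that fit. The calls of map7b, MAPRE1, STMN1-4169 and tuba8l4 (lower) and map7a, tuba2 and MAP7D2-68480 (higher) were kept in both lines. The WT bodies left out (1, 2 and 5) held 6773, 4900 and 2751 CPM of oocyte markers, and those kept (3, 4 and 6) held 1390, 5199 and 1110. WT bodies 1, 2, 4 and 5 were lower in neuron markers and higher in oocyte markers than WT bodies 3 and 6. Neuron and oocyte content therefore cannot be told apart in this fit or the next. With the neuron score as a covariate, also chosen after seeing the data, 22 of 69 were called in M (5 higher, 17 lower) and 12 in S (1 higher, 11 lower). Of all genes, 28.55% and 18.98% were called with this score. Of the 6 members higher in M bodies, 4 were still called then (tuba2, CLASP1, map7a and mapta), with a median change of 0.32 for the 6, against 0.89 without the covariate. Of the 16 members higher in S bodies, map7a alone was still called, and the median change of the 16 was 0.24, against 1.08 without the covariate. In both of these added fits tuba1b was higher in M than in S bodies (0.91, adjusted p = 0.00031, without the low bodies; 0.77, adjusted p = 2.25e-05, with the score), where all bodies gave 0.62 with adjusted p = 0.158 (edgeR). Against WT, tuba1b was lower in S in these fits (-0.56, adjusted p = 0.0152, and -0.81, adjusted p = 0.000116, edgeR) and not called in M. STMN3 was also higher in M than in S bodies in both (0.54, adjusted p = 0.0188, and 0.53, adjusted p = 0.0308).

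**Figure D5:**
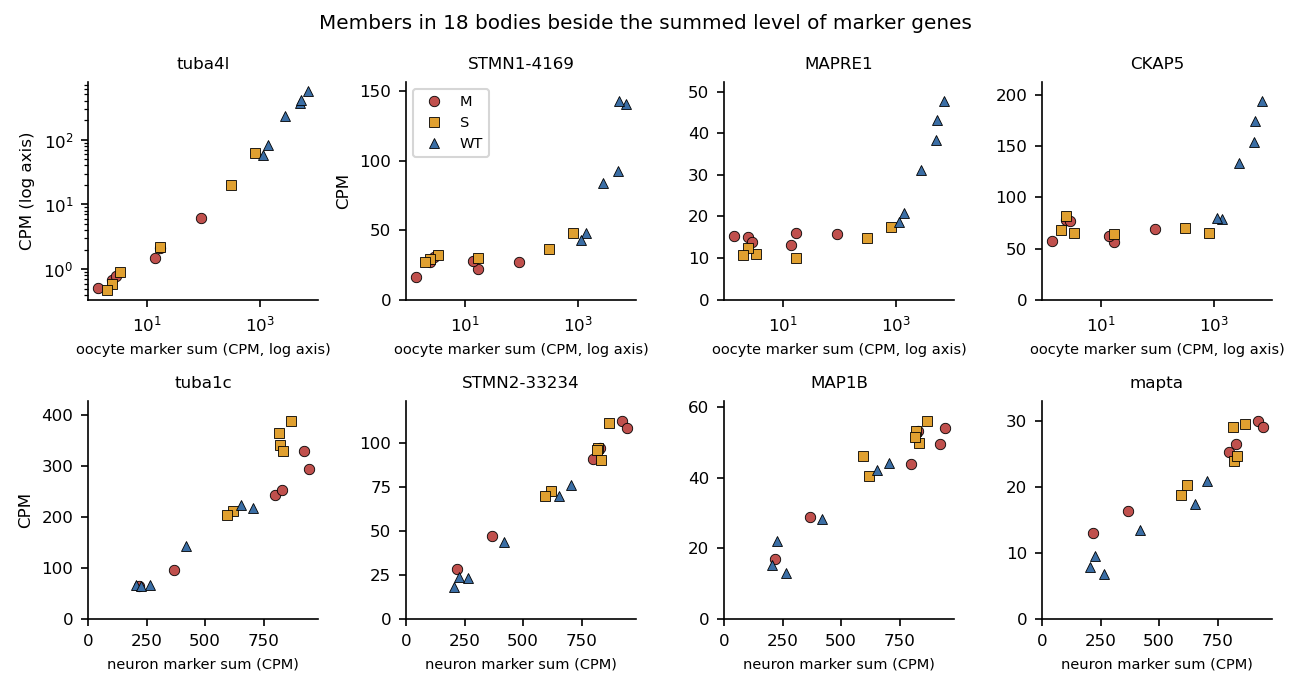
Each point is 1 of 18 bodies (6 M, 6 S, 6 WT). In the upper row the level of 4 members is set against the summed oocyte markers (log axis; the level of tuba4l is on a log axis too), and in the lower row that of 4 neuronal members against the summed neuron markers; tuba4l climbs with the oocyte sum over all bodies, the other 3 of that row are highest in the 4 WT bodies with 2751 CPM or more, and the 4 genes of the lower row are lowest in M bodies 2 and 5 and WT bodies 1, 2, 4 and 5, which have the smallest neuron sums.

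Signed as body minus brain, the change in M differed between tissues for 12 of 70 members (3 positive and 9 negative differences). This was 17.1% where 12.3% of all genes differed (3.64% positive, 8.69% negative). In S it differed for 7 (3 positive, 4 negative), 10% where 9.17% of all genes did (2.75% positive, 6.42% negative). A negative difference can be a greater drop in bodies, as for STMN1-4169 in M (-1.86 in bodies, -0.56 in brains). With RLE scaling the M split was 8 positive and 9 negative. Differences in M were led by TUBGCP3 (body minus brain -1.25, SE 0.25, adjusted p = 0.00199, edgeR), CKAP5 (-1.19, SE 0.27, adjusted p = 0.00485), MAPRE1 and CLIP1. In S they were led by map7b (-1.53, SE 0.28, adjusted p = 0.00244) and map1sb (1.14, SE 0.30, adjusted p = 0.0199), the second being lost without WT brain 1 or 2 (adjusted p up to 0.0698). The S count was 2, 2, 4, 13 and 19 without WT brain 1, 2 or 3 or WT body 3 or 6, and the M count was 20 without WT body 6 or M body 5. STMN1-4169 was lower in M in both tissues. STMN2-33234 was lower in S brains (-0.20) and higher in S bodies (1.07), but the test of that difference did not pass (1.23, SE 0.47, adjusted p = 0.0977).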

How the data were processed

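The authors deposited whole-number read counts per gene for each library, in 1 table for brains and 1 for bodies. STAR and the builds GRCz11 and GRCz10 stand in the submitters' processing notes, without roles, and the sources used here give neither the counting tool nor its use of strand. Per the labels' protocols, poly(A) RNA was read as pairs of 150 bases. Symbols came from a table of Ensembl identifiers, which named 29201 of 32520 genes. No gene lengths were used, so CPM levels do not rank genes by their number of transcripts. The most abundant member of each family was taken by CPM alone, and summed levels weigh genes by their CPM.

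Counts were filtered with filterByExpr, scaled by TMM and tested with edgeR 4.0.16 (R 4.3.3), by robust quasi-likelihood fits to 11 brains (18733 genes), 18 bodies (20240 genes) and all 29 libraries (22442 genes; WT brain against WT body and tissue differences). P-values were adjusted over all genes tested. SE is the absolute log2 change over the square root of F. The fits were also run on simulated counts with a single spread for all genes and no oocyte difference between groups. That run does not bear on the oocyte difference of the real bodies. No 2 libraries of a group agreed within sampling noise. Alternatives were DESeq2 1.42.0, other scaling and filters, only the groups compared, the replicate block, leaving out each library, an oocyte marker score and, added later, a neuron score and leaving out bodies low in gh1. Named members were the called ones of smallest adjusted p in each within-tissue comparison (up to 8 per direction), those called in both lines or both tissues, the 6 largest changes per direction between WT tissues, up to 4 per tissue difference, the most abundant of each family, and map1sb; a few others called in these comparisons were named after their values were seen. The members and lists were chosen with earlier results of these data known.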

Additional observations from a re-analysis of the deposited data

Results flagged for a closer look

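Among 245 groups of 4 to 6 libraries, over 49 members, 13 held a library apart from the rest by Dixon's 95% criterion, and chance gives about 1 in 20. In bodies, tuba4l was 6.271 CPM in M body 1 (other M bodies 0.503 to 2.157) and 61.89 CPM in S body 2 (other S bodies 0.48 to 20.08), and CKAP5 was 82.04 CPM in S body 5 (64.29 to 70). M brain 4 was apart in tuba8l3 (86.07 CPM, others 63.21 to 66.92), CLASP2 (523.8, others 487.4 to 488.9), TUBGCP3 (43.54, others 46.16 to 46.62) and map4l (1004, others 964.8 to 970.3), and M brain 1 in map6d1 (25.15, others 18.81 to 19.77). S brain 2 was apart in tubb4bl (312.8 CPM, others 101.7 to 107.8), S brain 1 in MAP1A (663.1, others 701.9 to 708.6) and STMN2-33234 (793.3, others 746.3 to 753.4), and S brain 4 in DCLK1-104664 (133.8, others 117.4 to 119) and STMN4-43932 (109.8, others 125.6 to 127.8).

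The log2 change against WT differed between body and brain by edgeR's interaction test for these members, as body minus brain. In M the negative differences were TUBGCP3 -1.254 (adjusted p = 0.00199), CKAP5 -1.188 (0.00485), MAPRE1 -1.454 (0.00599), CLIP1 -0.844 (0.0101), TUBGCP5 -0.7266 (0.0102), TUBGCP2 -0.8986 (0.011), map7b -1.04 (0.0165), STMN1-4169 -1.339 (0.0218) and CAMSAP1-19208 -1.472 (0.022). The positive ones in M were map7a 0.9294 (0.0204), map1sb 0.9717 (0.0346) and STMN4-43932 1.421 (0.0393). In S the negative differences were map7b -1.534 (0.00244), STMN1-4169 -1.412 (0.0212), CKAP5 -0.9736 (0.022) and MAPRE1 -1.12 (0.0392), and the positive ones were map1sb 1.135 (0.0199), map7a 0.937 (0.0251) and STMN4-43932 1.464 (0.0419). In M, map1sb and STMN4-43932 lost the call in 11 and 13 of 19 fits without 1 library, and in S, MAPRE1 and STMN4-43932 in 12 and 15.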

How the results depend on the processing

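Counts of members called with 1 library left out ran from 11 to 17 in M brains, 3 to 11 in S brains, 7 to 18 between M and S brains, 16 to 34 in M bodies, 19 to 42 in S bodies, 0 to 1 between M and S bodies, 62 to 64 between WT tissues, 8 to 20 for the tissue difference in M and 2 to 19 in S. With the oocyte score 0 were called in M and 0 in S bodies, and 4 changes reversed: tuba4l (0.52 in M, 0.45 in S), MAPRE1 in M (0.067) and TUBGCP3 in S (0.066). That score separates the lines from WT without overlap, so these fits have larger SEs. Without the bodies low in gh1 the counts were 10 in M, 14 in S and 2 between them, from fewer samples (of all genes 11.68%, 14.9% and 5.553%). With the neuron score they were 12 in S and 4 between M and S bodies (18.98% and 9.565%). DESeq2 called 3 between M and S bodies (11.33%), and 21 (M) and 12 (S) for the tissue differences (18.1% and 13.87%). A fit to only the groups compared called 2 between M and S bodies (10.81%). Scaling by RLE called 17 for the tissue difference in M (8 positive, 9 negative), against 3 positive and 9 negative with TMM. It called 13.21% of all genes there. The labels do not say whether replicate numbers pair the samples, so the numbers were not used in the main fits. For deviations of same-numbered libraries from their group means, r was -0.2377 to 0.1233 over 10 brain pairs, 2 of them above 0.1. It was -0.2797 to 0.4947 over 18 body pairs, 10 of them above 0.1. Every pair of a WT and an M body was positive (0.08158 to 0.4947). These values do not settle whether the samples are paired. With the replicate block, 13, 6 and 12 were called in brains (M, S, M against S), 23 (10 higher, 13 lower), 39 (28 higher, 11 lower) and 1 in bodies, 64 between WT tissues, and 16 (M) and 11 (S) for tissue differences. In the same order, the block fits called 8.242%, 7.217% and 8.477% of all genes in brains and 32.95%, 39.25% and 7.139% in bodies. They called 78.52% between WT tissues, and 11.16% and 8.337% for tissue differences. The causes of these shifts were not tested.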
